A study of Mus musculus with 6 samples.

Results

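Potassium channel genes were followed in sorted islet β cells of mice labelled as lacking both Swi/Snf chromatin remodelling ATPases, as compared with control β cells. The set was taken by symbol, as every gene whose name starts with Kcn and a further letter, apart from Kcnq1ot1, together with Abcc8. The table held 97 such genes among 24421 rows. They comprised 40 voltage-gated (Kv) channels, 15 inward rectifiers (Kcnj), 14 tandem-pore-domain leak channels (Kcnk), 17 accessory subunits and 3 antisense RNAs. The other 8 were calcium- or sodium-activated channels and their relative Kcnu1, grouped as Kca. Abcc8, which encodes the sulfonylurea receptor that pairs with the Kcnj11 pore, was not analysed here.

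In β cells, potassium channels hold the membrane at rest and end each burst of electrical activity. The KATP channel, built from Kcnj11 and Abcc8 subunits, closes when glucose metabolism raises ATP. The membrane then depolarises, calcium enters and insulin is released. Voltage-gated and calcium-activated channels repolarise the cell, and leak channels set how far it lies from its firing threshold.

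RNA-seq was available for 3 control and 3 βDKO libraries, each made from tdTomato-positive β cells sorted from dispersed islets of mice at 7 weeks of age. All animals were tamoxifen-treated, carried MIP-CreERT, a tamoxifen-inducible Cre under an insulin promoter, and R26LSL-tdTomato as a Cre-activated reporter, on a mixed C57BL/6J and 129SV background. Controls were Brg1f/+ and Brm+/-, so they too lacked an allele of Brm and could lose an allele of Brg1 on recombination. The βDKO animals were Brg1f/f and Brm-/-. Brg1 (Smarca4) and Brm (Smarca2) are the alternative ATPases of Swi/Snf. The labels do not say whether a sample was 1 animal or a pool, so the p-values reflect only how far these samples differ, which may be technical.

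Values are in TPM, a transcript abundance corrected for gene length and library total, from 25388872 to 31282056 recovered reads per library. Insulin transcripts (Ins1 and Ins2) took 42.6% to 48.3% of the total in controls and 6.37% to 8.93% in βDKO, and every other gene's TPM is set against that total. Each change is therefore given on TPM and again after dividing by median-of-ratios size factors, where the typical gene is set near no change, as "rescaled". The median log2 change of all 10404 genes tested was 0.83 on TPM and 0.03 rescaled. The words rose and fell are kept for genes past an adjusted p of 0.05 in 1 direction on both scales. All p-values are from limma, with Benjamini-Hochberg adjustment over all genes tested. Smarca4 stood at 8.997 to 13.5 TPM in controls and 10.5 to 11.4 TPM in βDKO, a log2 change of −0.08 on TPM (adjusted p = 0.667) and −0.86 rescaled (adjusted p = 0.000562). Smarca2 changed by 0.11 (adjusted p = 0.684) and −0.71 (adjusted p = 0.0101). These values cover whole genes, including exons outside a deletion, and check the labels only in part.

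All 10 β-cell markers examined were detected in both groups, though most were lower in βDKO. Pdx1 averaged 275.4 TPM in controls and 348.7 TPM in βDKO, and Nkx6-1 averaged 640.5 and 846.5 TPM. The other 8 had lower means in βDKO, among them Mafa (712.3 and 22.7 TPM), Ucn3 (577.0 and 30.7 TPM), Slc30a8 (833.2 and 33.2 TPM), G6pc2 (1155 and 193.4 TPM) and Iapp (43681 and 4008 TPM). Summed α-cell markers ranged from 2390 to 5098 TPM in controls and from 584 to 877 TPM in βDKO. For δ-cell markers the sums overlapped, at 2520 to 5003 TPM and 1968 to 2542 TPM, and Rbp4 among them was higher in βDKO (61.5 and 224.8 TPM). Those of PP and ε cells were at 1592 to 4019 TPM and 608 to 891 TPM. Immune-cell markers summed to 124.3 to 227.9 TPM and 9.80 to 14.8 TPM, with Ptprc and Cd3e below 1 TPM in every library. C1qa made up most of the control sums, at a mean of 130.8 TPM in controls and 5.79 TPM in βDKO. Lower means in βDKO were also seen for Fcer1g (18.1 and 0.386 TPM), Cd74 (11.2 and 0.812 TPM) and Cd79a (10.8 and 0.478 TPM). C1qb averaged 5.91 and 0.150 TPM and Lyz2 5.38 and 0.391 TPM. Csf1r averaged 0.669 and 0.215 TPM, Adgre1 0.560 and 0 TPM, and Cd68 was near level at 3.45 and 3.75 TPM. Neuronal markers summed to 101.3 to 147.3 TPM in controls and 426.3 to 445.0 TPM in βDKO. Snap25, which β cells also use for exocytosis, made up most of that sum, at a mean of 79.1 and 400.2 TPM. Elavl4 was higher in βDKO (5.51 and 14.4 TPM) and Tubb3 lower (39.9 and 22.8 TPM), while Rbfox3, Nefl and Prph were below 1 TPM in all libraries. Endothelial markers summed to 5.90 to 12.0 TPM and 24.0 to 28.9 TPM, with 6 of 8 below 1 TPM throughout. Esam made up most of that sum, at a mean of 7.46 and 26.2 TPM, while the other 7 had lower means in βDKO. The part of these differences in the channel results was not tested. In bulk samples, fewer cells of a type and less RNA per cell cannot be told apart.

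The promoters of 6 genes that fell or rose, drawn from those with an entry in the RefSeq promoter table, show how unlike they are in CpG content. Each run is 300 bases of GRCm38.p6 (the mm10 build), from 250 before to 50 after the first listed start, read 5′ to 3′ on the gene's strand. CpG dinucleotides are in capitals. The first 3 belong to genes that fell: Kcnk16 (chr14:20269220-20269519, minus strand), Kcnj5 (chr9:32344295-32344594, minus strand) and Kcnmb2 (chr3:31902453-31902752, plus strand). The others belong to genes that rose: Kcnh8 (chr17:52602459-52602758, plus strand), Kcnip4 (chr5:49285610-49285909, minus strand, a start inside the annotated gene) and Kcnn1 (chr8:70863209-70863508, minus strand).
Kcnk16: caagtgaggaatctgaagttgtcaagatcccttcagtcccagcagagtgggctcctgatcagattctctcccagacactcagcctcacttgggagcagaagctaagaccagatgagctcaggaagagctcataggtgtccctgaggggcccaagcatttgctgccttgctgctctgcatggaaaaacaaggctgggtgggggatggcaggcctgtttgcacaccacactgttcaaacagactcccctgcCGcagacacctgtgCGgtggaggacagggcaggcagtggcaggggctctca
Kcnj5: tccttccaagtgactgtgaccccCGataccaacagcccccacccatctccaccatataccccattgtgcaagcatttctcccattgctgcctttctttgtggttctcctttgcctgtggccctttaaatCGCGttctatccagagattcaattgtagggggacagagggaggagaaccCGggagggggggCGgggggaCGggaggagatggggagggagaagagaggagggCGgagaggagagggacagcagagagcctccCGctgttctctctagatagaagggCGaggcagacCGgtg
Kcnmb2: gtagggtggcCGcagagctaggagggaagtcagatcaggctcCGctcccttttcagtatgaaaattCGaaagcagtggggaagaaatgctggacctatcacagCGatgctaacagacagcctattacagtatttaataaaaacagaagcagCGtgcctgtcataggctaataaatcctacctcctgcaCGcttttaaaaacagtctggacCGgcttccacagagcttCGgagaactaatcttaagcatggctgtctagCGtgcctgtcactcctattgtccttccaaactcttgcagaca
Kcnh8: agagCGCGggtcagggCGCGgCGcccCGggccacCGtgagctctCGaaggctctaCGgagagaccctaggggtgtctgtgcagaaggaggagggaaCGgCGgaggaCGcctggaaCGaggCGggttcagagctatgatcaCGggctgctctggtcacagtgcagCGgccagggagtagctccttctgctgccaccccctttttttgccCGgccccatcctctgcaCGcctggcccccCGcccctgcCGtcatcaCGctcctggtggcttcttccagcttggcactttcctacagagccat
Kcnip4: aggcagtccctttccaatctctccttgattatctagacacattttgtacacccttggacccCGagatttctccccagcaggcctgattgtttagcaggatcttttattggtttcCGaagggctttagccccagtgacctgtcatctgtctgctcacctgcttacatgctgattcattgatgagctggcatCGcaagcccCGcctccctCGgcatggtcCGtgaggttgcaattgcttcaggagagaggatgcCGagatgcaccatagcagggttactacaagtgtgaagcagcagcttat
Kcnn1: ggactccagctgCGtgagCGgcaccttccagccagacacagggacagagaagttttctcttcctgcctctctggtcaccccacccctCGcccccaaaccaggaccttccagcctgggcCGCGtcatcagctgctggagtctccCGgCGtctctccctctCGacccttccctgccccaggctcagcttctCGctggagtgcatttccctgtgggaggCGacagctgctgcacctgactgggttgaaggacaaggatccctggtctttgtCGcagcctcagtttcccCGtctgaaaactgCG

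The Kcnk16 window held 2 CpG dinucleotides, against 10 for Kcnj5, 9 for Kcnmb2, 21 for Kcnh8, 7 for Kcnip4 and 13 for Kcnn1. Scaled to base composition, the observed-to-expected CpG ratio was 0.0823 for Kcnk16, a value that 10.9% of all 32851 promoters lay at or below. The ratio was 0.399 for Kcnj5, 0.529 for Kcnmb2, 0.643 for Kcnh8, 0.361 for Kcnip4 and 0.462 for Kcnn1. The median over all promoters was 0.384, with quartiles of 0.176 and 0.7498, so Kcnk16 alone of these 6 lay outside the middle range. Over all genes in the 5 TPM fit, with a gene's promoters averaged, those that rose had a median ratio of 0.753 and those that fell 0.594. For genes that did neither it was 0.797, so both called groups lay below the others tested.

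Of the 97 genes, 18 were listed at 0 in all 6 libraries and 41 more stayed under a filter of 1 TPM in at least 3 libraries. A further 18 passed that filter only, and 20 passed the main filter of 5 TPM in at least 3 libraries. Of these 20, 9 were higher and 5 lower on TPM, where 81.4% of all genes tested were higher and 4.61% lower. Rescaled, 3 were higher and 9 lower, against 23.4% and 21.1% of all genes. On both scales 3 of the 20 rose (background 23.4%) and 5 fell (background 4.61%). Kcnh8, Kcnip4 and Kcnn1 rose, and Kcnk16, Kcnj11, Kcnj5, Kcnmb2 and Kcnab3 fell. The median log2 change of the 20 was 0.36 on TPM and −0.40 rescaled, in both cases below that of all genes. Kcnh8, Kcnip4, Kcnj5, Kcnk9 and Kcnn1 passed the 5 TPM filter through 1 group only, so their inclusion already favours a difference.

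**Figure D1:**
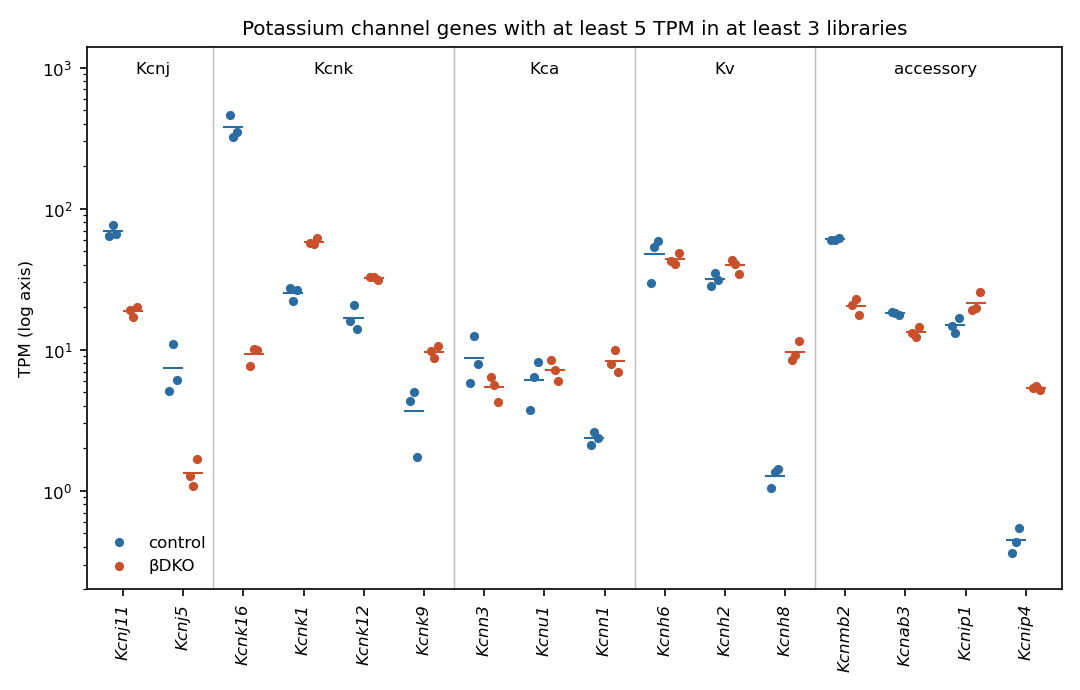
TPM (log axis) of 16 of the 20 potassium channel genes past the 5 TPM filter, by subfamily. Points are the 3 control (blue) and 3 βDKO (orange) libraries and short lines are group means. Kcnk16 lies between 322.4 and 459.7 TPM in controls and between 7.66 and 10.1 TPM in βDKO. Kcnj11, Kcnj5, Kcnmb2 and Kcnab3 also separate downwards without overlap. Kcnh8, Kcnip4 and Kcnn1 separate upwards, as do Kcnk1, Kcnk12, Kcnk9 and Kcnip1, which did not pass after rescaling.

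Among inward rectifiers, the pore of the KATP channel and a G-protein-gated subunit fell. Kcnj11 (chr7:46093953-46100764, minus strand) was measured at 64.1, 76.6 and 66.4 TPM in controls 1 to 3, against 19.0, 17.1 and 20.0 TPM in βDKO. The groups were far apart, with little spread inside either. It fell 3.69-fold, from 69.0 ± 6.65 to 18.7 ± 1.47 TPM (SD, n = 3 each), with a log2 change of −1.83 (SE 0.12, limma adjusted p = 1.14e-05) by TPM and −2.65 (SE 0.11, adjusted p = 2.24e-06) rescaled. At least 1030 reads stood behind each library's value.

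Kcnj5 (chr9:32314707-32344350, minus strand) encodes a subunit of the G-protein-gated rectifiers, which somatostatin and adrenergic receptors open. It was at 5.13, 10.997 and 6.07 TPM in controls and at 1.27, 1.09 and 1.67 TPM in βDKO, so control 2 was highest and the groups did not overlap. The fall was 5.52-fold, with log2 changes of −1.79 (SE 0.26, adjusted p = 0.000372) and −2.39 (SE 0.22, adjusted p = 0.000115). Of its partner subunits, Kcnj9 rose. It was at 0.0366, 0.126 and 0.186 TPM (2, 5 and 9 reads) in controls and at 2.14, 2.14 and 1.52 TPM (75, 73 and 51 reads) in βDKO. The rise was 16.6-fold with the 1 TPM filter, by 1.39 (SE 0.17, limma adjusted p = 0.000206) by TPM and 1.08 (adjusted p = 0.00177) rescaled. Kcnj6, named after its values were seen, was at 0.521, 0.817 and 0.462 TPM in controls and 1.81, 1.66 and 1.85 TPM in βDKO, which passed on TPM (0.80, adjusted p = 0.00223) and not rescaled (0.37, adjusted p = 0.101).

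Kcnj3, another partner under both filters and picked out after its values were seen, was at 0.0878, 0.243 and 0.119 TPM (15, 30 and 18 reads) in controls and 0.0275, 0.0282 and 0.00952 TPM (3, 3 and 1 reads) in βDKO. The ratio of Kcnj5 to Kcnj6 was 9.85, 13.5 and 13.1 in controls and 0.702, 0.654 and 0.899 in βDKO. Kcnj5 was the more abundant of the pair in every control and the less abundant in every βDKO library. These ratios are within a library and so do not depend on the scaling, and they were chosen after the values were seen. The exons of Kcnj3, Kcnj9 and Kcnj6 each overlap a transcript on the opposite strand, and the use of strand in counting is not given. Such an overlap is also annotated for Kcnj13, Kcnk1, Kcnma1, Kcnh3 and Kcnd3, described below.

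Kcnj12, a classical strong rectifier that stabilises the resting potential, was at 5.15, 4.09 and 3.50 TPM in controls and 4.02, 3.94 and 1.90 TPM in βDKO. The groups overlapped, and with the 1 TPM filter the change was −0.32 (adjusted p = 0.256) by TPM and −0.99 (SE 0.27, adjusted p = 0.0203) rescaled. Without βDKO 3 the rescaled value was −0.74 (limma adjusted p = 0.0547). Its relative Kcnj2 was at 0.527 to 1.44 TPM in controls and 1.09 to 1.53 TPM in βDKO, past the threshold on neither scale. Of the 15 rectifiers, 3 (Kcnj1, Kcnj15 and Kcnj16) were listed at 0 and 6 more were under the 1 TPM filter. One of those was Kcnj13, picked out after its values were seen, with 5, 12 and 12 reads in controls and 0 in each βDKO library, where a count of 0 allows up to 3.

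Among 5 leak channels tested, Kcnk16 fell and no other passed on both scales. Kcnk16 (chr14:20261376-20269199, minus strand) encodes a pancreas-restricted leak channel that limits calcium entry in β cells. It was at 459.7, 322.4 and 351.9 TPM in controls and at 7.66, 10.1 and 9.96 TPM in βDKO, resting on 3428 to 6757 reads in controls and 72 to 93 in βDKO. The mean fell 40.8-fold, from 378.0 ± 72.2 to 9.26 ± 1.39 TPM (SD, n = 3 each). The log2 change was −5.20 (SE 0.16, limma adjusted p = 5.68e-07) by TPM and −6.00 (SE 0.22, adjusted p = 1.62e-06) rescaled.

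Kcnk1 (chr8:125995170-126030685), a weak inward-rectifying leak channel, was at 27.3, 22.3 and 26.5 TPM in controls and 56.8, 56.2 and 62.2 TPM in βDKO. All βDKO libraries were above all controls on TPM, a 2.30-fold higher mean (log2 1.18, SE 0.12, adjusted p = 7.30e-05). Rescaled, the change was 0.35 (SE 0.15, adjusted p = 0.1004), and it passed only without control 1 (0.51, limma adjusted p = 0.00801). Kcnk12, a subunit of the halothane-inhibited leak channels, was at 14.1 to 20.6 TPM in controls and 31.2 to 32.9 TPM in βDKO, or 0.92 (adjusted p = 0.00082) by TPM and 0.10 (adjusted p = 0.616) rescaled. Kcnk9, an acid-sensitive leak channel, was at 4.35, 4.99 and 1.74 TPM in controls and 9.82, 8.73 and 10.5 TPM in βDKO, or 1.26 (adjusted p = 0.00349) and 0.54 (adjusted p = 0.206). These 3 genes were thus higher on TPM by about as much as, or somewhat more than, the typical gene, and none passed after rescaling.

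Kcnk3, another acid-sensitive leak channel, stayed under both filters, at 2.02, 1.84 and 0.817 TPM in controls and 0.638, 0.831 and 0.357 TPM in βDKO, and was not tested. The groups overlapped by a narrow margin. Of the 14 leak channels, Kcnk4, Kcnk15 and Kcnk18 were listed at 0 in all libraries. The ratio of Kcnk16 to Kcnk1 was 16.8, 14.5 and 13.3 in controls and 0.135, 0.181 and 0.160 in βDKO. In this measure, chosen after the values were seen, the leading leak channel transcript passed from Kcnk16 to Kcnk1 in every βDKO library.

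Small-conductance calcium-activated (SK) channels, which contribute to afterhyperpolarisation, included 2 genes that rose, Kcnn1 and Kcnn2, and 1, Kcnn3, that was lower after rescaling only. Kcnn1 (chr8:70842049-70863258, minus strand) was at 2.12, 2.60 and 2.38 TPM in controls and 7.93, 9.97 and 6.96 TPM in βDKO, with no overlap. It rose 3.50-fold, by 1.45 (SE 0.17, limma adjusted p = 0.000129) by TPM and 0.77 (SE 0.15, adjusted p = 0.00443) rescaled. Kcnn3 was at 5.79, 12.6 and 7.96 TPM in controls and 6.39, 5.65 and 4.27 TPM in βDKO, an overlap set by control 1. The change was −0.56 (SE 0.26, adjusted p = 0.076) by TPM and −1.29 (SE 0.21, adjusted p = 0.00195) rescaled, and without control 1 it also passed on TPM (−0.79, limma adjusted p = 0.0133).

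Kcnn2, the remaining SK pore and named after its values were seen, rose 4.94-fold with the 1 TPM filter, from 0.906, 0.889 and 1.03 TPM to 4.98, 5.30 and 3.66 TPM. Its changes were 1.53 (limma adjusted p = 0.000151) and 0.97 (adjusted p = 0.00272). The ratio of Kcnn3 to Kcnn1 was 2.73, 4.84 and 3.35 in controls and 0.806, 0.567 and 0.613 in βDKO, so Kcnn3 was the more abundant in every control and the less abundant in every βDKO library. The exons of Kcnn1 and Kcnn2 overlap opposite-strand transcripts.

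Kcnma1, the pore of the large-conductance (BK) channel, was low but well counted, with 1067 to 1212 reads in controls and 2465 to 2844 in βDKO. Its TPM was 0.567, 0.865 and 0.624 in controls and 2.29, 2.04 and 2.15 in βDKO, a 3.16-fold higher mean. With the 1 TPM filter it passed on TPM (0.91, SE 0.15, limma adjusted p = 0.000993) and rescaled (0.45, SE 0.15, adjusted p = 0.0424). The rescaled call was lost without control 1, control 3 or any 1 βDKO library, where limma adjusted p was 0.0649 to 0.148. Kcnu1, a relative known from sperm, was at 3.73, 6.37 and 8.13 TPM in controls and 8.39, 7.14 and 5.98 TPM in βDKO. Those groups overlapped, and neither scale passed (0.25, adjusted p = 0.369, and −0.48, adjusted p = 0.0782). Without control 1 the rescaled change passed, at −0.67 (limma adjusted p = 0.0150). Kcnn4, the intermediate-conductance channel, was at 0.415 to 0.645 TPM in controls and 0.120 to 0.281 TPM in βDKO and was not tested.

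**Figure D2:**
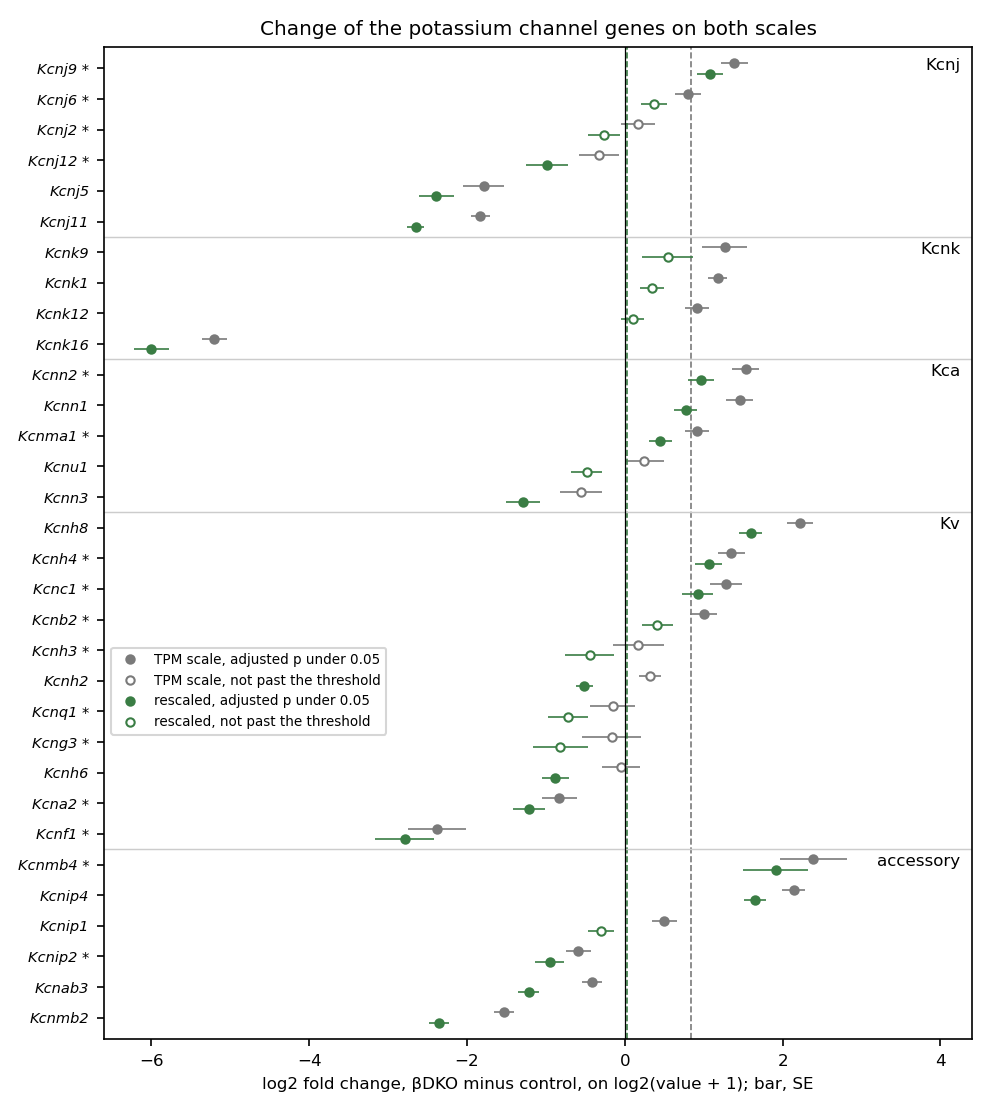
Log2 change (βDKO minus control) of 32 of the 38 potassium channel genes tested, on TPM (grey) and rescaled (green), with SE bars. Filled points passed the threshold, an asterisk marks genes tested with the 1 TPM filter, and dashed lines show the median of all genes tested (0.83 and 0.03). Kcnk16 lies lowest at −5.20 and −6.00, and several genes are filled on 1 scale only.

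The BK accessory subunits Kcnmb2 and Kcnmb4 moved in opposite directions. Kcnmb2 (chr3:31902507-32200180), whose subunit makes BK channels inactivate, was at 59.6, 60.3 and 61.4 TPM in controls and 20.8, 22.7 and 17.6 TPM in βDKO. It fell 2.96-fold, from 60.5 ± 0.924 to 20.4 ± 2.58 TPM (SD, n = 3 each), by −1.53 (SE 0.12, limma adjusted p = 2.59e-05) by TPM and −2.35 (SE 0.13, adjusted p = 7.16e-06) rescaled. Kcnmb4, the BK subunit best known from neurons and named after its values were seen, was at 0.476, 0.165 and 0.404 TPM in controls and 10.1, 8.40 and 2.32 TPM in βDKO. It rose 20.0-fold with the 1 TPM filter (2.39, SE 0.42, limma adjusted p = 0.0013, and 1.91, SE 0.41, adjusted p = 0.00818). The counts behind this were small, at 2 to 8 reads in controls and 109, 88 and 24 in βDKO, and βDKO 3 lay well under the other two.

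The ratio of Kcnmb2 to Kcnmb4 was accordingly 125.2, 366.7 and 152.0 in controls and 2.06, 2.71 and 7.59 in βDKO. Kcnmb2 remained the more abundant in every library. The antisense RNAs Kcnmb4os1 and Kcnmb4os2 overlap Kcnmb4 exons, and Kcnmb4os2 was itself at 0.586, 1.32 and 0.183 TPM in βDKO against 0, 0.156 and 0 TPM in controls, so reads of the pair cannot be told apart without strand. Kcnmb1, the smooth-muscle BK subunit, was at 0.474 to 1.21 TPM in controls and at most 0.134 TPM in βDKO, untested.

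**Figure D3:**
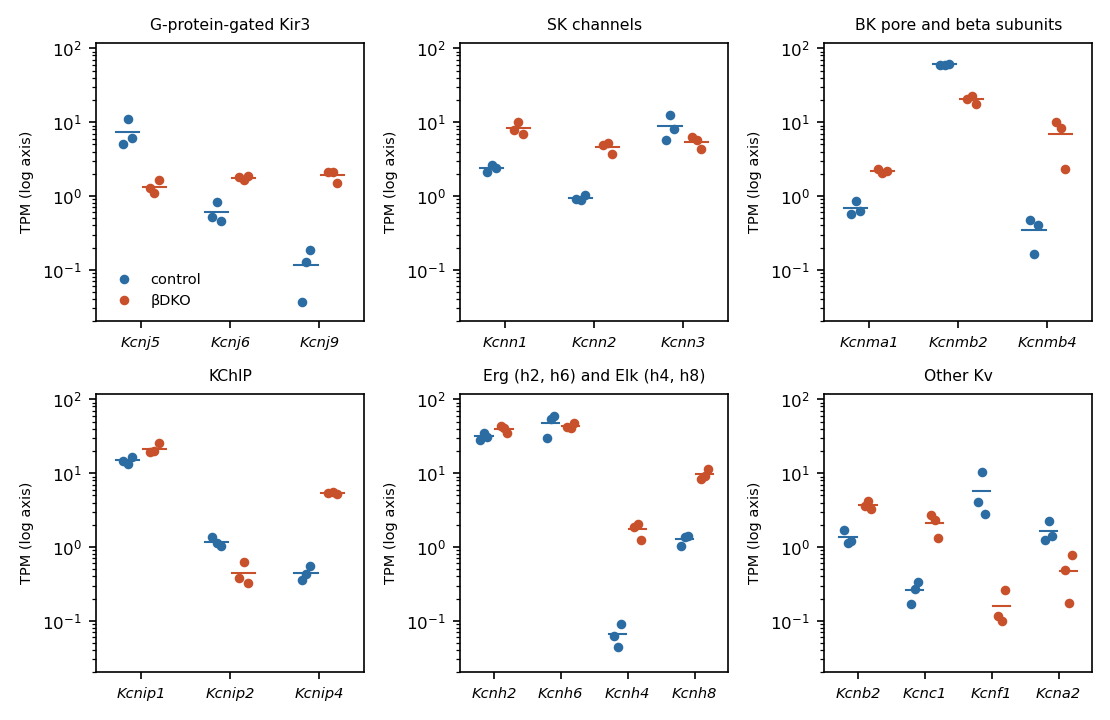
TPM (log axes) of related genes in 6 panels: G-protein-gated rectifiers, SK channels, BK subunits, Kcnip partners, Erg and Elk channels, and the Kv genes Kcnb2, Kcnc1, Kcnf1 and Kcna2. Points are libraries (blue control, orange βDKO) and lines are group means. The order of Kcnj5 and Kcnj6 and of Kcnn3 and Kcnn1 is reversed in βDKO, while Kcnmb2 stays above Kcnmb4 and Kcnh6 above Kcnh8.

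Of 7 voltage-gated channels in the 5 TPM fit, 1 rose (background 23.4%) and 0 fell (background 4.61%). Kcnh8 (chr17:52602709-52979194), a member of the Elk family that activates at negative potentials, was at 1.05, 1.35 and 1.42 TPM in controls and 8.44, 9.13 and 11.4 TPM in βDKO. It rose 7.60-fold, by 2.22 (SE 0.17, limma adjusted p = 1.78e-05) by TPM and 1.60 (SE 0.15, adjusted p = 0.000113) rescaled. A second Elk gene, Kcnh4, named after its values were seen, rose 26.6-fold with the 1 TPM filter, from 0.0632, 0.0437 and 0.0895 TPM (2 to 5 reads) to 1.88, 2.08 and 1.26 TPM (49 to 82 reads). Its changes were 1.35 (limma adjusted p = 0.000276) and 1.07 (adjusted p = 0.00212). The third Elk gene, Kcnh3, showed no such separation, at 1.76 to 4.20 TPM in controls and 1.66 to 4.15 TPM in βDKO.

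The Erg genes Kcnh2 and Kcnh6, related channels that shape the resting potential between bursts, were abundant in both groups. Kcnh2, also the cardiac repolarising channel, was at 28.4, 35.2 and 31.0 TPM in controls and 43.5, 40.8 and 34.5 TPM in βDKO. Its change was 0.32 (SE 0.14, adjusted p = 0.0563) by TPM and −0.51 (SE 0.11, adjusted p = 0.00669) rescaled, opposite signs on the 2 scales. On TPM it passed without control 2 (limma adjusted p = 0.0390) or βDKO 3 (0.0337). Kcnh6 was at 29.7, 53.4 and 59.3 TPM in controls and 42.8, 40.8 and 48.5 TPM in βDKO, so control 1 alone lay under all βDKO libraries. The change was −0.05 (SE 0.24, adjusted p = 0.847) by TPM and −0.88 (SE 0.17, adjusted p = 0.00418) rescaled, and without control 1 it was −0.35 (limma adjusted p = 0.0141) on TPM. The ratio of Kcnh6 to Kcnh8 was 28.4 to 41.7 in controls and 4.24 to 5.07 in βDKO.

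Kcnb2, a delayed rectifier, was at 1.70, 1.12 and 1.22 TPM in controls and 3.64, 4.14 and 3.28 TPM in βDKO. It was higher on TPM by 1.001 (adjusted p = 0.000978) with the 1 TPM filter, with 0.41 (adjusted p = 0.132) rescaled, which passed without control 1 (0.62, limma adjusted p = 0.0196). Kcnf1, which makes no channel alone and modifies other Kv channels, was at 4.11, 10.4 and 2.80 TPM in controls and 0.117, 0.1001 and 0.264 TPM in βDKO. It fell 35.9-fold with the 1 TPM filter, by −2.38 (SE 0.37, limma adjusted p = 0.000651) and −2.79 (SE 0.37, adjusted p = 0.000921). Kcnb2 and Kcnf1 were named after their values were seen.

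Kcnq1, a slowly activating channel, was at 1.20, 3.002 and 3.31 TPM in controls and 2.13, 2.60 and 1.45 TPM in βDKO, with overlap. With the 1 TPM filter its change was −0.16 (adjusted p = 0.625) by TPM and −0.72 (adjusted p = 0.0534) rescaled, and −0.999 (limma adjusted p = 0.00807) rescaled without control 1. Its exons overlap the opposite-strand Kcnq1ot1. Kcnd3, an A-type channel, was at most 0.0362 TPM in any library, so its level could not be compared at this depth. Its relative Kcnd2 was at 0.0132, 0.0182 and 0.0447 TPM (1, 1 and 3 reads) in controls and 3.002, 1.84 and 0.706 TPM (146, 87 and 33 reads) in βDKO. It failed the 1 TPM filter through βDKO 3 and was not tested.

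Other Kv genes singled out after their values were seen were Kcnc1 and Kcna2. Kcnc1, a fast delayed rectifier, rose 8.15-fold with the 1 TPM filter, from 0.168, 0.273 and 0.341 TPM to 2.70, 2.33 and 1.34 TPM (1.28, limma adjusted p = 0.000766, and 0.92, adjusted p = 0.00736). Kcna2, a low-threshold channel, fell from 1.23, 2.25 and 1.40 TPM to 0.492, 0.174 and 0.773 TPM (−0.83, limma adjusted p = 0.00913, and −1.22, adjusted p = 0.00261, with the 1 TPM filter). Of the 40 Kv genes, 7 were listed at 0 and 17 more stayed under the 1 TPM filter.

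Subunits that bind Kv channels also divided. Kcnip4 (chr5:48389502-49524907, minus strand), a calcium-binding partner of A-type channels, was at 0.361, 0.431 and 0.544 TPM in controls and 5.37, 5.49 and 5.20 TPM in βDKO. It rose 12.0-fold, by 2.14 (SE 0.14, limma adjusted p = 1.17e-05) by TPM and 1.65 (SE 0.14, adjusted p = 6.44e-05) rescaled. Its paralog Kcnip1 was the more abundant, at 14.7, 13.2 and 16.8 TPM in controls and 19.2, 19.8 and 25.7 TPM in βDKO. That passed on TPM (0.50, SE 0.16, adjusted p = 0.0181), not without control 2 or βDKO 3 (limma adjusted p = 0.0605 and 0.0712), and stood at −0.31 (adjusted p = 0.165) rescaled. The ratio of Kcnip1 to Kcnip4 was 30.6 to 40.7 in controls and 3.56 to 4.94 in βDKO.

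Kcnip2, another paralog, named after its values were seen, was at 1.35, 1.14 and 1.02 TPM in controls and 0.384, 0.629 and 0.324 TPM in βDKO. It fell with the 1 TPM filter (−0.59, limma adjusted p = 0.0107, and −0.95, adjusted p = 0.00504). Kcnab3, an oxidoreductase-like subunit of Kv channels, was at 18.4, 18.3 and 17.5 TPM in controls and 13.1, 12.4 and 14.4 TPM in βDKO. It fell 1.36-fold, by −0.42 (SE 0.13, adjusted p = 0.013) by TPM and −1.22 (SE 0.13, adjusted p = 0.000236) rescaled. On TPM that call was lost without βDKO 1 (limma adjusted p = 0.0597), without βDKO 2 (0.0750) and with those libraries averaged (0.0640). Exons of Kcnab3 and Kcnip4 overlap opposite-strand transcripts.

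With the 1 TPM filter, 38 of the 97 genes were tested. On TPM 17 were higher (background 76.0%) and 8 lower (background 6.04%), and rescaled 9 were higher and 13 lower (background 22.4% and 21.2%). On both scales 9 rose (23.7%, background 22.4%) while 8 fell (21.1%, background 6.04%). Those that rose were 1 of 6 inward rectifiers, 3 of 5 Kca channels, 3 of 16 Kv channels and 2 of 6 accessory subunits, with none among 5 leak channels. Those that fell were 2 rectifiers, 1 leak channel, 2 Kv channels and 3 accessory subunits, with no Kca channel among them. Of these 38 genes, 10 passed the filter through 1 group only: Kcna2, Kcnc1, Kcnf1, Kcnh4, Kcnip2, Kcnip4, Kcnj6, Kcnj9, Kcnma1 and Kcnmb4. Of the 79 genes of the set above 0 in any library, 25 had all βDKO libraries above all controls on TPM (background 59.1%) and 18 all below (background 7.81%), whatever their filter. The number of genes of the set at 1 TPM or more was 31 to 32 per control library and 35 to 38 per βDKO library.

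The summed TPM of the 77 pore-forming genes was 706, 664 and 659 in controls and 359, 349 and 338 in βDKO. Kcnk16 held 65.1%, 48.5% and 53.4% of the sum in controls and 2.13%, 2.90% and 2.94% in βDKO. Without it, the sum was 246, 342 and 307 TPM in controls and 351, 339 and 328 TPM in βDKO, with control 2 inside the βDKO range and controls 1 and 3 under it. Leak channels as a whole took 56.6% to 72.4% of the pore-forming sum in controls and 30.7% to 34.8% in βDKO. Kv channels took 14.7% to 25.5% and 49.9% to 52.4%. On TPM their sums overlapped between the groups, at 103.5, 169.4 and 159.3 in controls and 188.1, 179.9 and 169.0 in βDKO. All these sums are on TPM only, where the median log2 change of all genes was 0.83, and their overlap depends on that scale. Size factors were 0.639 to 0.804 in controls and 1.33 to 1.37 in βDKO, so rescaling lowers the βDKO sums against those of controls. Since Kcnk16 is part of the total, its level bears on every other share. Kca channels, Kcnu1 included, took 1.94% to 3.57% and 6.88% to 8.68%. The Kcnj11 share was 9.09%, 11.5% and 10.1% in controls and 5.29%, 4.89% and 5.91% in βDKO.

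The order of abundance changed with it. By TPM, which is corrected for length, Kcnk16 ranked 1 in every control and 13, 8 and 10 in βDKO 1 to 3. Kcnj11 ranked 2 in every control and 7 in every βDKO library. Kcnk1 moved from 5 in every control to 1 in every βDKO library, while Kcnh6 and Kcnh2 held ranks 2 to 4 throughout. Ranks and shares within a library do not depend on the scaling, and each is a description with no test.

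**Figure D4:**
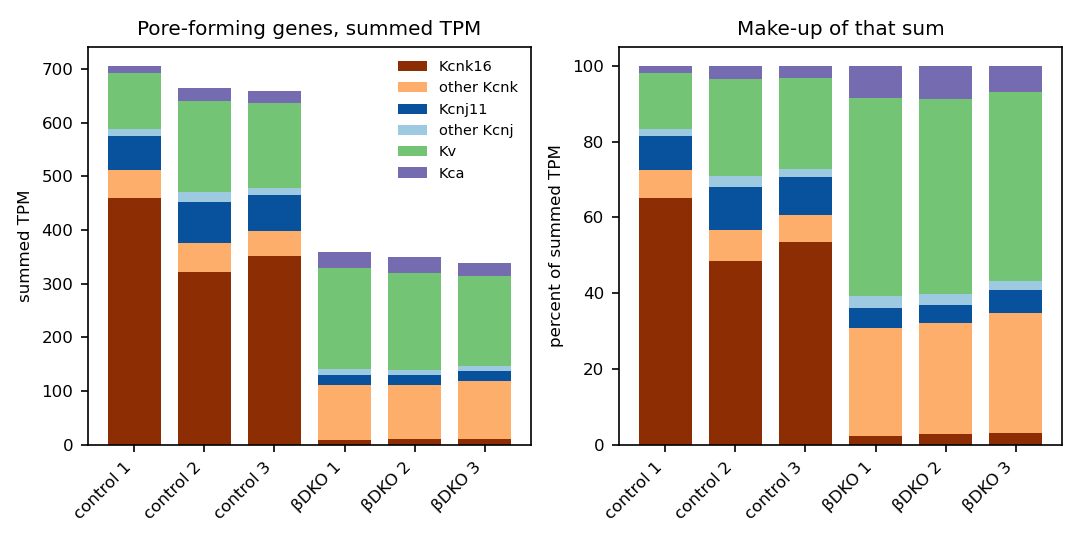
Summed TPM of pore-forming potassium channel genes (left) and its make-up in percent (right), as stacked bars for the 6 libraries, by subfamily with Kcnk16 and Kcnj11 separate. Kcnk16 holds 48.5% to 65.1% in controls and 2.13% to 2.94% in βDKO, and Kv channels hold 49.9% to 52.4% in βDKO against at most 25.5% in controls.

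Genes that work with these channels were taken from 2 lists. Of 16 partners and other potassium-conducting genes, 11 were tested, of which 5 rose (background 23.4%) and 2 fell (background 4.61%). Amigo2, a cell-adhesion membrane protein, rose from 25.1 ± 7.18 to 207.1 ± 42.5 TPM (log2 3.02 and 2.18, rescaled limma adjusted p = 5.67e-05). Lrrc55, an auxiliary subunit of BK channels, fell from 81.6 ± 49.7 to 4.37 ± 1.17 TPM (−3.77 and −4.52, adjusted p = 0.000174). Hcn4, a pacemaker channel, fell from 11.8 ± 4.96 to 6.15 ± 1.45 TPM (−0.79 and −1.53, adjusted p = 0.00146).

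Of 23 genes of glucose entry, calcium and sodium currents and ion pumps, 17 were tested, of which 5 rose and 4 fell, against the same background of 23.4% and 4.61%. Among those that rose was Atp1b1, a sodium pump subunit picked out after its values were seen, from 205.0 ± 16.4 to 764.5 ± 71.0 TPM (rescaled log2 1.04, limma adjusted p = 0.000297). The 4 with the smallest adjusted p had all fallen. Slc2a2, the glucose transporter upstream of KATP closure, fell from 435.9 ± 104.6 to 14.8 ± 0.885 TPM (rescaled log2 −5.58, limma adjusted p = 1.15e-07). Trpm5, a calcium-activated cation channel, fell from 47.1 ± 17.01 to 0.123 ± 0.0456 TPM (rescaled −5.82). The endoplasmic reticulum calcium pumps Atp2a3 and Atp2a2 fell from 188.3 ± 21.4 to 55.0 ± 2.99 TPM and from 207.7 ± 51.1 to 91.1 ± 5.35 TPM (rescaled −2.59 and −1.99; SD, n = 3 each).

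In the 5 TPM fit, 3 of the 5 genes that fell were shorter than the median of all genes that fell, and the 3 that rose were of mixed length. Kcnab3 spans 6.79 kb, Kcnj11 6.81 kb, Kcnk16 7.82 kb and Kcnj5 29.6 kb, whereas Kcnmb2 spans 297.7 kb. Kcnn1 spans 21.2 kb, Kcnh8 376.5 kb and Kcnip4 1135.4 kb. All genes that rose had a median span of 24.4 kb and all that fell 19.9 kb.

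Promoter windows of tested channel genes were searched on both strands for 4 motifs. None of 32 windows, from 26 genes, held TAATTA, a core of homeodomain factors that 5.29% of all promoters hold. The forkhead sequence TGTTTAC, in 3.65% of all promoters, was in none of them. The cyclic AMP response element TGACGTCA, in 1.79% of all promoters, was in none either. The Maf half-site TGCTGA was found in 5 windows (15.6%), of Kcnh6, Kcnip1, Kcnip4 and Kcnj12, against 19.5% of all promoters. A match describes the letters of a window only.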

How the data were processed

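RNA-seq of sorted islet β cells was deposited as TPM, per the file headers, in a table with 1 column per sample, each summing to the same total. FastQC, Trimmomatic, HISAT2, HTSeq, DESeq2 and mm10 are named in the submitters' processing notes, while versions, annotation and strand setting are not stated there. Whole reads were recovered from the authors' TPM values for 16625 of 16625 rows above 0 in at least 2 libraries (100%, within 0.01 of a read), leaving open a multiple shared by all libraries of a gene. TPM are set by the library total, so a change in insulin transcripts moves all other genes.

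The 10404 genes at 5 TPM or more in 3 or more libraries were tested as log2(TPM + 1) with limma 3.58.1 (robust, mean-variance trend, two-sided) in R 4.3.3, with group as the factor and Benjamini-Hochberg adjustment at 0.05. On this scale changes of low genes are understated. Fold values are ratios of mean TPM. The fit was repeated after dividing by median-of-ratios size factors, from 0.639 (control 1) to 1.37 (βDKO 1), and with a filter of 1 TPM (12541 genes), which gives the values of lower genes. The fit was tested on simulated data. A count test had been planned in case the table held counts and was replaced by limma. Members, gene lists and comparisons were chosen with earlier results of these data known.

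Genes named were Kcnj11, Kcnk16, Kcnk3, Kcnma1, Kcnq1, Kcnh2, Kcnd3 and, in each subfamily, up to 4 with the largest rescaled change called on both scales and up to 3 of the highest mean TPM (at least 1), 23 in all; of each gene list, up to 4 with the smallest rescaled adjusted p. A few genes are not reported here, though fits and counts include them. Other members named were chosen after their values were seen, as were the ratios between related genes. Abcc8, and its ratio to Kcnj11, were not analysed here. Coordinates are mm10 (GENCODE M21); promoters are RefSeq's on GRCm38.p6, with 71 of the 97 genes matched. Same-numbered samples did not deviate together for replicates 1 and 2, while replicate 3 did so weakly (r = 0.21 on TPM). Numbers were not treated as pairs in the main fit. Alternatives were the filter, pseudocount, scaling, limma-voom on recovered reads, replicate block, averaged βDKO 1 and 2, and each library left out. Counting error only is covered by read numbers.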

Additional observations from a re-analysis of the deposited data

How the results depend on the processing

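For the 17 named genes in the 5 TPM fit, 426 of 442 comparisons with an alternative kept their direction and side of the threshold, 6 gained a call, 5 lost one and 5 changed sign without a call. The changes of sign were Kcnk12 rescaled without control 3 (−0.0746, range −0.0746 to 0.19 over libraries left out), Kcnu1 on TPM without control 1 (−0.0160, range −0.0160 to 0.46) and Kcnh6 on TPM without control 2, control 3 or βDKO 2 (0.06, 0.14 and 0.0012, range −0.35 to 0.14); the cause was not tested. With the 1 TPM filter, which tests more genes, 17 members were higher and 8 lower on TPM, 9 higher and 13 lower rescaled, and 9 rose and 8 fell on both scales. With no filter the counts were 21 and 15, 11 and 23, and 11 and 15. Leaving out a library gave 4 to 8 members lower on TPM and 4 to 8 fallen on both scales, each 8 without control 1, and 3 to 4 risen on both scales. Over both gene lists of partners and excitability, 10 rose and 6 fell; averaging βDKO 1 and 2 left 6 risen, and leaving out a library gave 5 (without βDKO 1) to 11 risen and 5 to 8 fallen. With the replicate block, 3 members rose and 5 fell and no named member's call changed. Same-numbered samples correlated at −0.06, −0.03 and 0.21 in their deviations on TPM, and not every sample correlated best with its own number. Control 3 and βDKO 3 did correlate best with each other. The ratio of Kcnj11 to Abcc8 was not run, since Abcc8 was not analysed here. With 3 samples a group, and few reads for the genes under 1 TPM in a group, small changes were not detectable.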

Other observations

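Some values followed a library rather than a group. Kcnip3, a calcium-binding Kv partner under both filters, was at 0.448, 0.466 and 0.0537 TPM in controls and at 3.02, 2.73 and 0.0429 TPM in βDKO, so replicate 3 was low in each group. Summed acinar-cell markers were at 622.3, 63.8 and 16.4 TPM in controls and 159.2, 158.4 and 18.2 TPM in βDKO. Replicate 3 was again lowest in each group, and control 1 was the highest of the 6 libraries. Control 1 was also the control with the lowest Kcnh6, Kcnq1, Kcng3, Kcnn3 and Kcnu1 on TPM. The same held for Kcnj11, Kcnj5, Kcnmb2, Kcnh2, Kcnh8, Kcnn1 and Kcnip4, though not for Kcnk16, Kcnk1, Kcnk12, Kcnk9, Kcnab3 or Kcnip1. Its size factor (0.639) was the lowest and its insulin share (48.3%) the highest of all libraries. A link with acinar RNA was not tested. Kcng3, a silent Kv subunit, was at 1.64, 4.95 and 7.26 TPM in controls and 3.54, 3.69 and 3.30 TPM in βDKO. Without control 1 it was lower on both scales with the 1 TPM filter (−0.64, limma adjusted p = 0.0137, and −1.25, adjusted p = 0.00235). Among genes under both filters, Kcnj4, a strong inward rectifier, was at 1.44, 0.346 and 1.23 TPM in controls and at 0.0434, 0.178 and 0.0904 TPM in βDKO. Kcnab2, an accessory subunit, was at 0.287 to 0.442 TPM and 0.717 to 0.883 TPM. Kcnip3, Kcnj4 and Kcnab2 were picked out after their values were seen and were not tested. The genes named for control 1 were tested, and that comparison was also picked out after their values were seen.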
